A study of Sus scrofa with 6 samples.

Results

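The genes described here carry iron into the cell, reduce it, store it and export it, or sense how much of it is present: TFRC, SLC11A2, SLC40A1, FTH1, FTL, IREB2, STEAP1, STEAP2, STEAP3 and CYBRD1. They were chosen by symbol from a list of 10, and 9 of the 10 had a row among the 17670 genes of the deposited count table. The remaining one, FTH1, which encodes the heavy chain of ferritin, was not matched to a row and was not analysed here. The study measured RNA in cultured immature Sertoli cells, the nurse cells of the seminiferous tubule, from testes of fetal pigs at 80 to 90 days of gestation. All cells grew in serum-containing medium, and 3 libraries came from control cells and 3 from cells that received AA2P, L-ascorbic acid 2-phosphate as its sesquimagnesium salt, a vitamin C derivative that lasts longer in medium than ascorbate. Cells had been in culture for 6 h when AA2P was added at 250 µM, and the time from then to harvest is not given in the sources used here. No label ties the libraries to separate cultures or animals, so each p-value reflects the spread between libraries, which may be technical.

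Most cells take up iron as ferric iron bound to transferrin. The transferrin receptor carries it into endosomes, a reductase of the STEAP family turns it into ferrous iron, and the divalent metal transporter SLC11A2 moves it into the cytosol. There it is used, stored in the ferritin shell or exported by ferroportin. When iron is scarce, the iron-regulatory proteins bind hairpins in several of these messenger RNAs, stabilizing that of the transferrin receptor and blocking translation of ferritin. Ascorbate is known as a reductant of iron and as a cofactor that keeps iron-dependent dioxygenases active. In the testis, Sertoli cells supply developing germ cells with iron and secrete transferrin.

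The transferrin receptor gene TFRC, the metal transporter gene SLC11A2, STEAP1, STEAP2 and STEAP3 were lower with AA2P. FTL, the 1 ferritin gene measured, and IREB2 were slightly higher, and the exporter gene SLC40A1 showed no difference past the threshold. TFRC fell 1.59-fold, STEAP1 1.80-fold, STEAP2 1.55-fold and SLC11A2 1.27-fold, and STEAP3, with few reads, was 5.59-fold lower. FTL and IREB2 rose 1.14-fold and 1.13-fold, though IREB2 lost its call without control library 2. The reductase gene CYBRD1 had too few counts to be tested. Of the 8 genes with enough counts to be tested, 5 fell and 2 rose by edgeR's quasi-likelihood test at a Benjamini-Hochberg adjusted p of 0.05 over all 12701 tested genes. The 3 AA2P libraries all lay below the 3 control libraries in 5 of the 8 genes and above them in 2, against 29.5% and 29.8% of all tested genes, or 59.3% together. Of those 12701 genes 26.1% fell, 26.0% rose and 52.1% were called in all, so a call alone is common in this comparison. The median log2 fold change, AA2P over control, was -0.49 for these 8 and -0.00 for all 12701. STEAP3 passed the filter on low counts through its control libraries, having at least 10 counts in 3 control libraries and in 1 AA2P library. Leaving it out, 4 of 7 fell and the median was -0.35. In bulk RNA, less RNA per cell and fewer cells expressing a gene cannot be told apart.

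**Figure D1:**
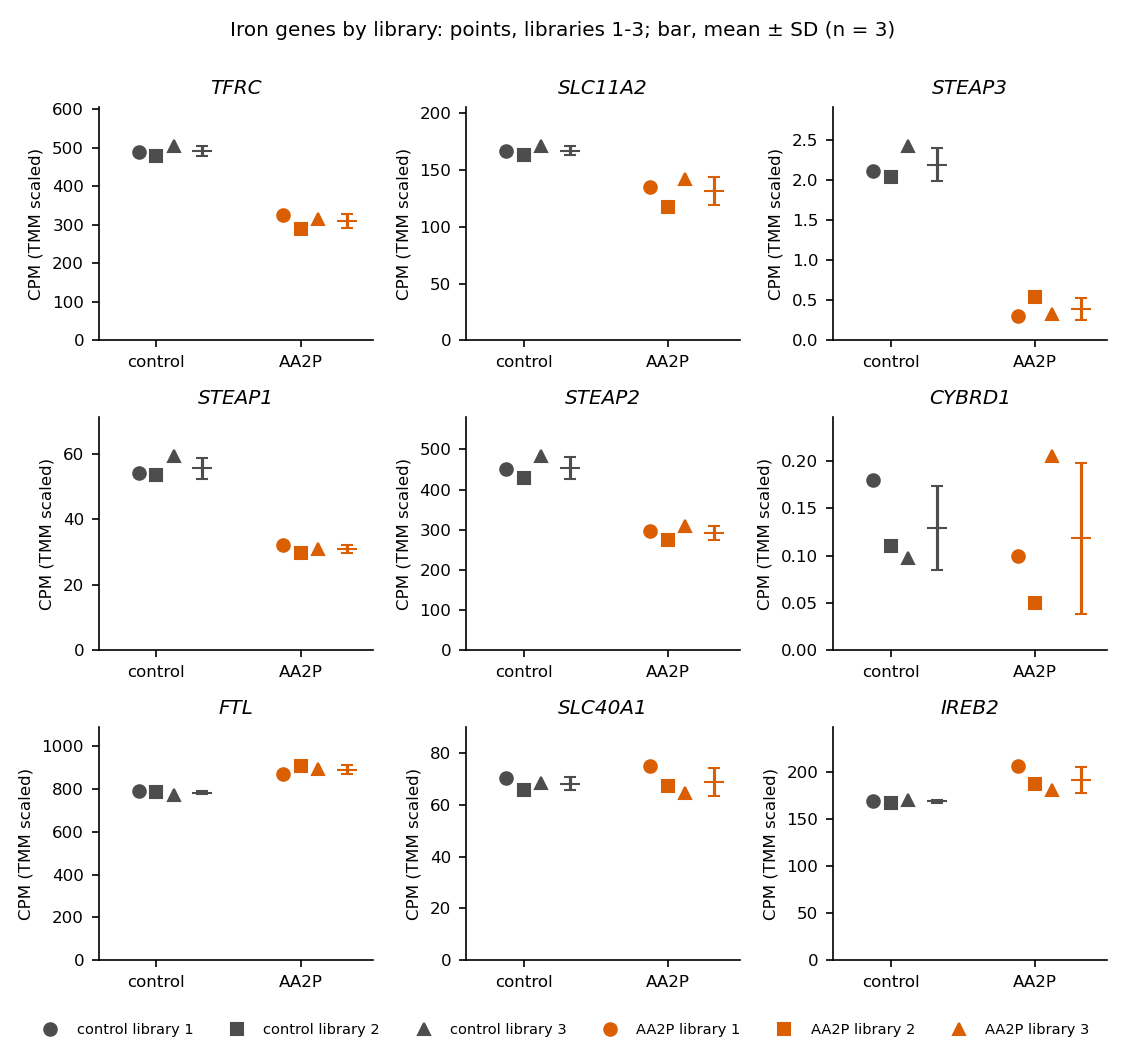
Level of each of the 9 genes with a row, in CPM, TMM-scaled read counts (vertical axis starting at 0), in 3 control and 3 AA2P libraries (points), with the mean and SD beside them (n = 3). The AA2P points lie below all control points for TFRC, SLC11A2, STEAP1, STEAP2 and STEAP3, above them for FTL and IREB2, and on both sides of the control range for SLC40A1 and CYBRD1.

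TFRC, the transferrin receptor, stood at 488, 479 and 504 CPM in control libraries 1 to 3 and at 324, 289 and 314 CPM in AA2P libraries 1 to 3. CPM are read counts brought to one fixed library size with trimmed mean of M-values (TMM) factors. The highest AA2P library lay well under the lowest control library. The means were 490.2 ± 13.0 and 309 ± 18.1 CPM (SD, n = 3). The log2 fold change was -0.67 with a standard error of 0.05 and a 95% interval from -0.78 to -0.56, at an adjusted p of 1.9e-08 by edgeR's quasi-likelihood test. Among all tested genes, 7.03% had a lower log2 fold change than TFRC.

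SLC11A2, the divalent metal transporter that takes ferrous iron out of the endosome, was at 167, 163 and 171 CPM in the control libraries. The AA2P libraries gave 135, 118 and 142 CPM, all below the controls, with AA2P library 3 nearest to them and library 2 farthest. The log2 fold change was -0.35 ± 0.06 (SE), with an interval from -0.48 to -0.22 and an adjusted p of 0.000181 by edgeR's quasi-likelihood test. Scaled by library totals instead of TMM factors, the fold change of SLC11A2 was -0.18 on the log2 scale, with an adjusted p of 0.0200 by the same test.

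The STEAP proteins are membrane reductases of iron and copper, except that STEAP1 lacks the domain that binds NADPH. STEAP3, the reductase known from the transferrin endosome of red cell precursors, had few reads in every library. Its counts were 47, 37 and 50 in control libraries 1 to 3 and 6, 11 and 8 in AA2P libraries 1 to 3, or 134 reads against 25 in all. Every AA2P library was below every control library, and all were above the level of 3 counts that a count of 0 allows. In CPM the means were 2.19 ± 0.205 and 0.391 ± 0.134 (SD, n = 3). The log2 fold change was -2.48 ± 0.28 (SE), with an interval from -3.09 to -1.88, and -2.49 when no filter on low counts was used. Because STEAP3 entered the test through the group in which it was high, its p-value is not given as support. Its standard error and interval come from the same test and are no support either. In all, 58 tested genes had a lower log2 fold change than STEAP3. Its spread among the AA2P libraries, a coefficient of variation of 34.2%, was about what counting error alone gives at that depth, 34.6%.

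STEAP1 and STEAP2 were read more deeply. In control libraries STEAP1 was at 54.0, 53.5 and 59.4 CPM, and AA2P libraries gave 32.1, 29.7 and 31.1 CPM, so the groups stood clearly apart. Its log2 fold change was -0.85 ± 0.06 (SE), with an interval from -0.98 to -0.71 and an adjusted p of 1.4e-08 by edgeR's quasi-likelihood test. For STEAP2 the control libraries gave 450.3, 429.6 and 484 CPM, and those with AA2P 296, 273 and 308 CPM. Its log2 fold change was -0.63 ± 0.06 (SE), with an interval from -0.76 to -0.51 and an adjusted p of 1.0e-07 by the same test. In both genes control library 3 was the highest and AA2P library 2 the lowest.

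CYBRD1, the duodenal ferric reductase that is known to use ascorbate as its electron donor, was hardly read. Control libraries 1 to 3 had 4, 2 and 2 counts and AA2P libraries 1 to 3 had 2, 1 and 5, too few to be tested. These values lie around the level of 3 counts, which is 0.123 to 0.165 CPM depending on the library and covers counting error only. A difference in CYBRD1 was not detectable at this depth.

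FTL, the light chain of ferritin that helps iron mineralize inside the shell, was at 788, 782 and 772 CPM in the control libraries. The AA2P libraries gave 866, 906 and 891 CPM, all above the controls. The log2 fold change was 0.18 ± 0.05 (SE), with an interval from 0.09 to 0.28 and an adjusted p of 0.00269 by edgeR's quasi-likelihood test. As a share of library totals, without TMM factors, FTL took 0.0729% to 0.0744% of control counts, against 0.0922% to 0.0962% with AA2P. Scaled by library totals, the median over all tested genes was also higher with AA2P, at 0.17 on the log2 scale. Ferritin genes have many processed copies in mammalian genomes, and the counting tool was not given, so the level of FTL is uncertain in that respect.

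IREB2, an iron-regulatory protein that is degraded when iron is plentiful, was at 169.6, 167 and 171 CPM in the control libraries. It was at 207, 187 and 181 CPM in AA2P libraries 1 to 3, all above the controls but unevenly so. The log2 fold change was 0.18 ± 0.05 (SE), with an interval from 0.06 to 0.29 and an adjusted p of 0.0108 by edgeR's quasi-likelihood test. Without control library 2 the adjusted p of IREB2 was 0.0533, and its log2 fold change was 0.17. Over 14 alternatives the adjusted p ran from 5.0e-05 to 0.0533.

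SLC40A1, ferroportin, the one known exporter of iron from vertebrate cells, was at 70.3, 65.6 and 68.4 CPM in control libraries 1 to 3, and at 74.9, 67.0 and 64.3 CPM with AA2P. The groups overlapped, with the highest and the lowest library both in the AA2P group. The log2 fold change was 0.01 ± 0.06 (SE), with an adjusted p of 0.884 by edgeR's quasi-likelihood test. The interval, from -0.12 to 0.15, leaves room for a small change of either sign. Scaled by library totals SLC40A1 was called higher, at a log2 fold change of 0.18 and an adjusted p of 0.0230.

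**Figure D2:**
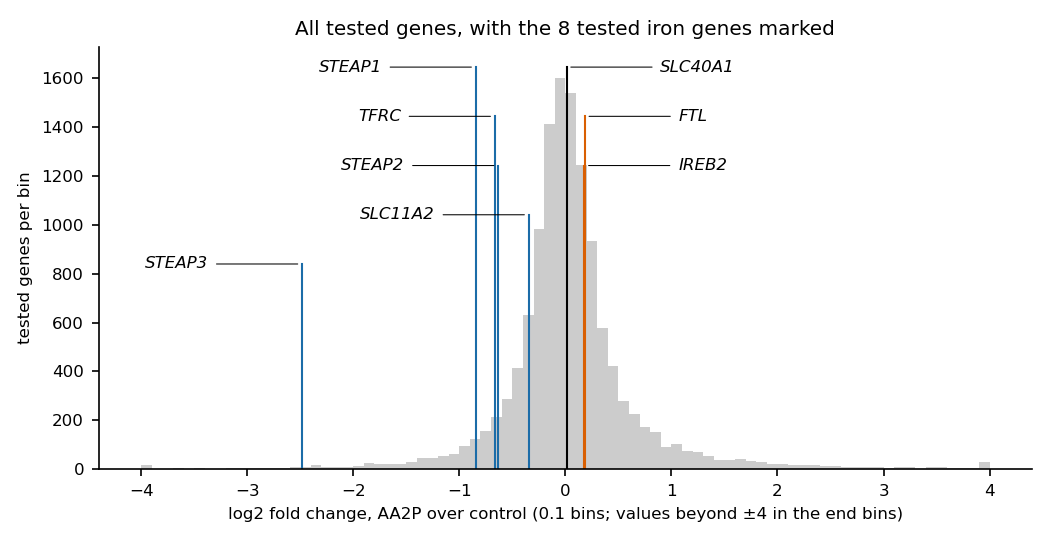
Number of tested genes (vertical axis) by log2 fold change, AA2P over control (horizontal axis, bins of 0.1), with vertical lines at the 8 tested iron genes (blue called lower, orange called higher, black not called, line heights only separate the names). STEAP3 at -2.48 lies in the far lower tail, STEAP1, TFRC and STEAP2 between -0.85 and -0.63 on the lower shoulder, and FTL and IREB2 at 0.18 close to the centre.

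The scaling of the libraries bears on the small changes. With library totals the median over all tested genes was 0.17 on the log2 scale, against -0.00 with TMM factors, and 45.1% of genes were called higher and 14.3% lower. Under that scaling 5 of the 8 iron genes were still called lower and 3 were called higher. FTL and IREB2 then stood at 0.35 each, and TFRC, STEAP1, STEAP2 and STEAP3 at -0.50, -0.68, -0.47 and -2.32. Differences are given relative to the TMM scaling elsewhere.

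Ratios of read counts within a library do not depend on that scaling. TFRC had 6.94, 7.30 and 7.37 reads for each read of SLC40A1 in control libraries 1 to 3 and 4.32, 4.31 and 4.87 in AA2P libraries 1 to 3. This ratio of receptor to exporter reads was 1.60-fold lower with AA2P, a difference of -0.68 ± 0.06 (SE) on the log2 scale. TFRC had 0.619, 0.612 and 0.653 reads for each read of FTL in the controls, against 0.374, 0.319 and 0.352 with AA2P, a difference of -0.85 ± 0.07. The ratio of receptor to light chain reads was thus below every control value in each AA2P library. STEAP2 had 8.33, 8.03 and 8.15 reads for each read of STEAP1 in the controls, against 9.24, 9.21 and 9.93 with AA2P. That ratio was 1.16-fold higher with AA2P, a difference of 0.21 ± 0.04. Each of the 3 ratios restates the fold changes given above for its genes, such as -0.63 and -0.85 for STEAP2 and STEAP1. The ratios are therefore no separate evidence. Those of TFRC to FTL and STEAP2 to STEAP1 were added after seeing the data. In each of the 3 ratios the groups did not overlap, and the exact two-sided permutation test gave p = 0.10, the smallest that 3 against 3 libraries allow, and 0.10 after Benjamini-Hochberg adjustment over the 3 ratios. Gene length enters these ratios, so they compare libraries and say nothing of which gene is more abundant.

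**Figure D3:**
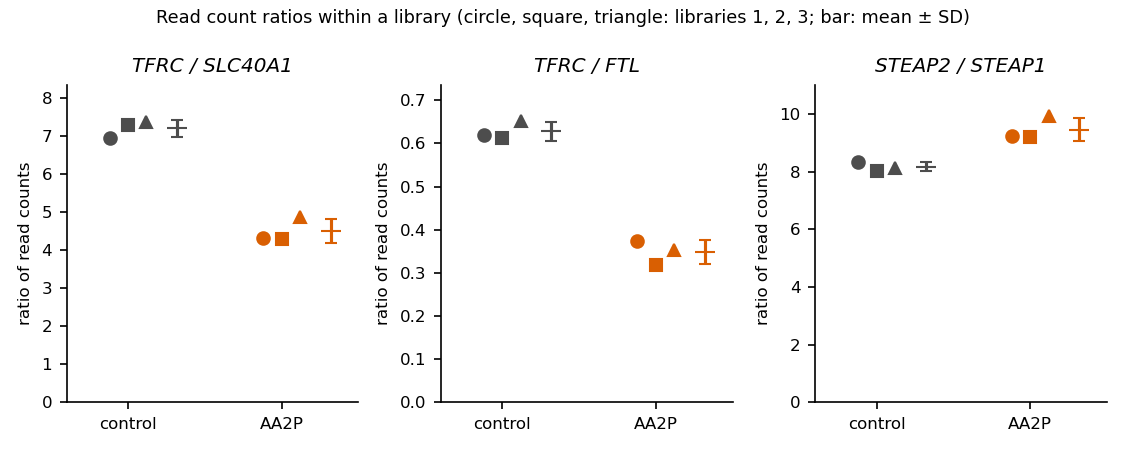
Reads of one gene per read of another in the same library (vertical axis, from 0), for TFRC over SLC40A1, TFRC over FTL and STEAP2 over STEAP1, in 3 control and 3 AA2P libraries, with the mean and SD. AA2P libraries lie between 4.31 and 4.87 for the first ratio, under the controls at 6.94 to 7.37, and above the controls for STEAP2 over STEAP1.

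The spread among replicates was compared between the groups without a test. Of the 8 tested iron genes, 7 had the larger coefficient of variation in the AA2P group, STEAP1 being the exception, as had 60.0% of all tested genes. IREB2 had 1.06% with control and 6.98% with AA2P, where counting error alone would give 1.71% and 1.56%. Its control value thus lay below counting error. SLC11A2 had 2.40% and 9.50%, where counting error alone would give 1.72% and 1.88%. TFRC had 2.65% and 5.85%, where counting error alone would give 1.00% and 1.23%.

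**Figure D4:**
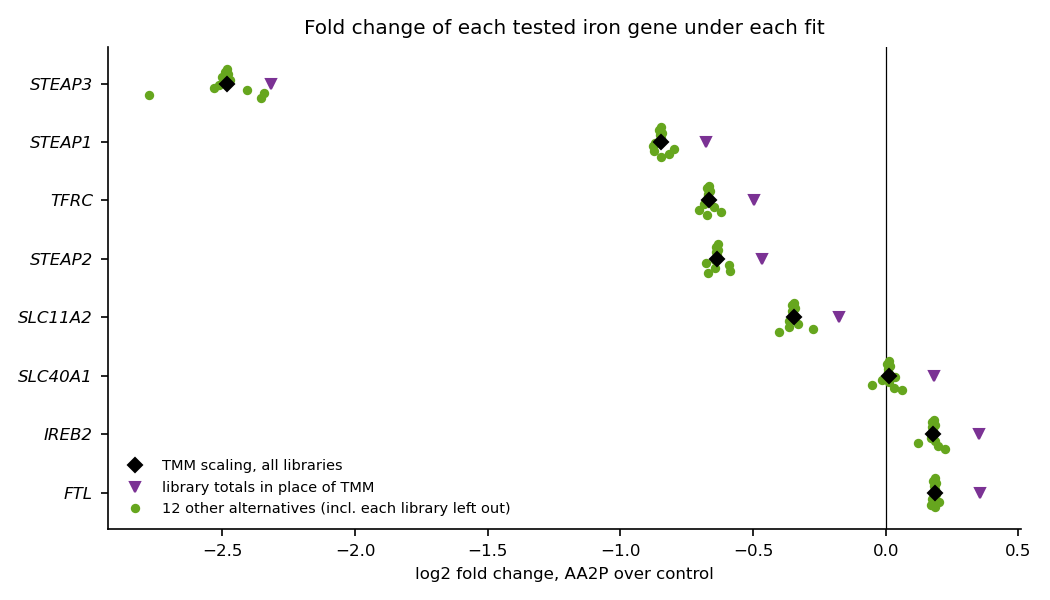
Log2 fold change of each tested iron gene, AA2P over control (horizontal axis), in the fit with TMM factors and all libraries (black diamond), with library totals (purple triangle) and in 12 other alternatives including each library left out (green points). SLC40A1 is the only one of the 8 with points on both sides of 0, and library totals shift all 8 upward by about 0.17.

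The wider set of iron and heme genes held 71 genes in 7 lists by role. Of these 61 had a row and 48 were tested, of which 23 rose and 8 fell. The median log2 fold change was 0.17. Leaving out TF, HPX and TMPRSS6, which had at least 10 counts in all libraries of 1 group only, 21 of 45 rose and 8 fell, with a median of 0.16. Shares of 26.0% higher and 26.1% lower were called among all tested genes. With library totals 31 of the 48 rose and 4 fell, and the median was 0.34. Under that scaling 45.1% of all tested genes were called higher and 14.3% lower, with a median of 0.17.

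Among regulators of iron balance, 3 of 6 tested genes rose and 1 fell (median 0.05), against 26.0% and 26.1% of all tested genes. BMP6, a ligand that induces hepcidin in the liver, rose 2.01-fold from 3.87 ± 0.659 to 7.78 ± 0.383 CPM (SD, n = 3). HFE, the partner of the transferrin receptors that is mutated in hemochromatosis, rose 1.41-fold from 14.6 ± 1.07 to 20.5 ± 1.36 CPM. FBXL5, the iron-sensing ligase subunit that marks IREB2 for degradation, rose 1.11-fold, with an adjusted p of 0.0185 by edgeR's quasi-likelihood test, but missed the threshold without control library 1, control library 2 or AA2P library 2, at 0.0949, 0.101 and 0.0701. NEO1, a receptor that binds hemojuvelin, had an adjusted p of 0.0462 at a log2 fold change of -0.13, and it missed the threshold in 12 of 14 alternatives, its fold change being 0.04 with library totals. ACO1, the other iron-regulatory protein, which is an aconitase when it holds an iron-sulfur cluster, was at 621 ± 7.95 CPM in controls and 597 ± 63.2 CPM with AA2P, with an adjusted p of 0.488. The hepcidin gene HAMP and the second transferrin receptor gene TFR2 had at most 11 and 6 counts in any library and were not tested.

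Among carriers and other uptake routes 4 of 8 tested genes were called higher and 3 lower, against 26.0% and 26.1% of all tested genes. In that list TF and HPX, the gene of the heme carrier hemopexin, had at least 10 counts in all 3 AA2P libraries but in 0 and 2 control libraries. Leaving them out, 2 of 6 rose and 3 fell, with a median of 0.03. TF, transferrin itself, had 8, 2 and 5 counts in control libraries 1 to 3, against 57, 82 and 44 with AA2P. The means were 0.238 ± 0.125 and 2.91 ± 1.13 CPM (SD, n = 3), and the log2 fold change was 3.51 ± 0.41 (SE). TF passed the filter through its AA2P libraries only, so its p-value is not given. The standard error of TF comes from the same test and is no support either. LRP2 and CUBN, the megalin and cubilin receptors that take up transferrin and other proteins from the lumen of tubules, rose 7.94-fold and 3.46-fold. LRP2 went from 92.7, 65.1 and 82.6 CPM to 742, 697 and 474 CPM, AA2P library 3 being the lowest of these. LCN2, lipocalin 2, which binds iron-loaded siderophores, fell 8.10-fold from 69.4 ± 2.70 to 8.43 ± 2.52 CPM. For LRP2, CUBN and LCN2 the adjusted p-values lay between 1.2e-11 (LCN2) and 7.3e-10 (CUBN) by edgeR's quasi-likelihood test.

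Only 3 genes of ferroxidases, chaperones and ferritin turnover were tested, of which 1 rose and 1 fell. Among all tested genes 26.0% rose and 26.1% fell. PCBP2, an RNA-binding protein that also hands iron to ferritin, fell 1.18-fold, but with library totals its log2 fold change was -0.06 at an adjusted p of 0.313. NCOA4, the receptor that takes ferritin to the lysosome, was at 110.3, 114 and 111 CPM in control libraries 1 to 3 and at 142, 133 and 110.0 CPM in AA2P libraries 1 to 3. The groups overlapped through AA2P library 3, and the adjusted p was 0.0302 by edgeR's quasi-likelihood test. NCOA4 missed the threshold without control library 1, 2 or 3 and without AA2P library 1 or 2, and its adjusted p ran from 5.8e-06 to 0.135 over 14 alternatives. CP, ceruloplasmin, the copper ferroxidase that works with ferroportin, was at 2011 ± 23.9 and 2027 ± 53.7 CPM (SD, n = 3), with a log2 fold change of 0.01 and an adjusted p of 0.853.

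Of the metalloreductases outside the chosen set, 2 of 4 tested genes rose and none fell, against 26.0% and 26.1% of all tested genes. STEAP1 and STEAP2 fell, while STEAP3, also lower, entered the test through its control libraries and is not counted here. FRRS1, a ferric reductase related to cytochrome b561, rose 1.55-fold from 34.7 ± 2.22 to 53.8 ± 6.29 CPM (SD, n = 3). CYB561, the cytochrome that passes electrons from ascorbate across vesicle membranes, rose 1.40-fold from 29.3 ± 1.44 to 41.0 ± 2.33 CPM. Both genes had their 3 AA2P libraries above their 3 control libraries, as had 29.8% of all tested genes. Their adjusted p-values were 6.3e-06 and 1.7e-05 by edgeR's quasi-likelihood test. STEAP4, the remaining STEAP gene, had at most 5 counts in any library.

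Genes of heme synthesis rose or did not pass the test. Of 8 tested, 4 rose and none fell (median 0.17), against 26.0% and 26.1% of all tested genes. With library totals 5 rose, against 45.1% of all tested genes. FECH, ferrochelatase, which inserts iron into the porphyrin ring, rose 1.42-fold from 40.7 ± 1.11 to 57.7 ± 1.48 CPM (SD, n = 3). ALAS1, which makes the first precursor, and CPOX and UROD, which act on later porphyrins, rose 1.24-fold, 1.25-fold and 1.37-fold.

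In heme breakdown and transport 3 of 7 tested genes rose and 2 fell (median 0.05), against 26.0% and 26.1% of all tested genes. HMOX1, the inducible heme oxygenase that releases iron from heme, fell 1.63-fold from 18.7 ± 1.94 to 11.4 ± 2.43 CPM (SD, n = 3). BLVRB, a biliverdin reductase, and SLC46A1, a folate transporter also described as a carrier of heme, rose 1.40-fold and 1.79-fold. FLVCR1, described as a heme exporter and choline transporter, fell 1.17-fold, but with library totals its log2 fold change was -0.05 at an adjusted p of 0.438.

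Genes of mitochondrial iron and iron-sulfur cluster assembly rose in 6 of 12 tested cases and fell in 1 (median 0.11). The shares over all tested genes were 26.0% and 26.1%. The iron-sulfur list also holds genes of cytosolic cluster assembly. ISCU, the scaffold on which iron-sulfur clusters are built, rose 1.43-fold from 62.7 ± 2.67 to 89.6 ± 4.17 CPM (SD, n = 3). SLC25A28, a mitochondrial iron importer, fell 1.36-fold from 42.0 ± 0.612 to 30.7 ± 3.99 CPM. NUBP1, a scaffold for cytosolic clusters, and HSCB, a co-chaperone of cluster transfer, rose 1.17-fold and 1.22-fold. NUBP1 missed the threshold without control library 1, and HSCB missed it without control library 1 or 3 or AA2P library 2, by the DESeq2 Wald test (adjusted p 0.0574) and at an adjusted p of 0.01. ISCU and SLC25A28 stayed past it in all 14 alternatives.

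**Figure D5:**
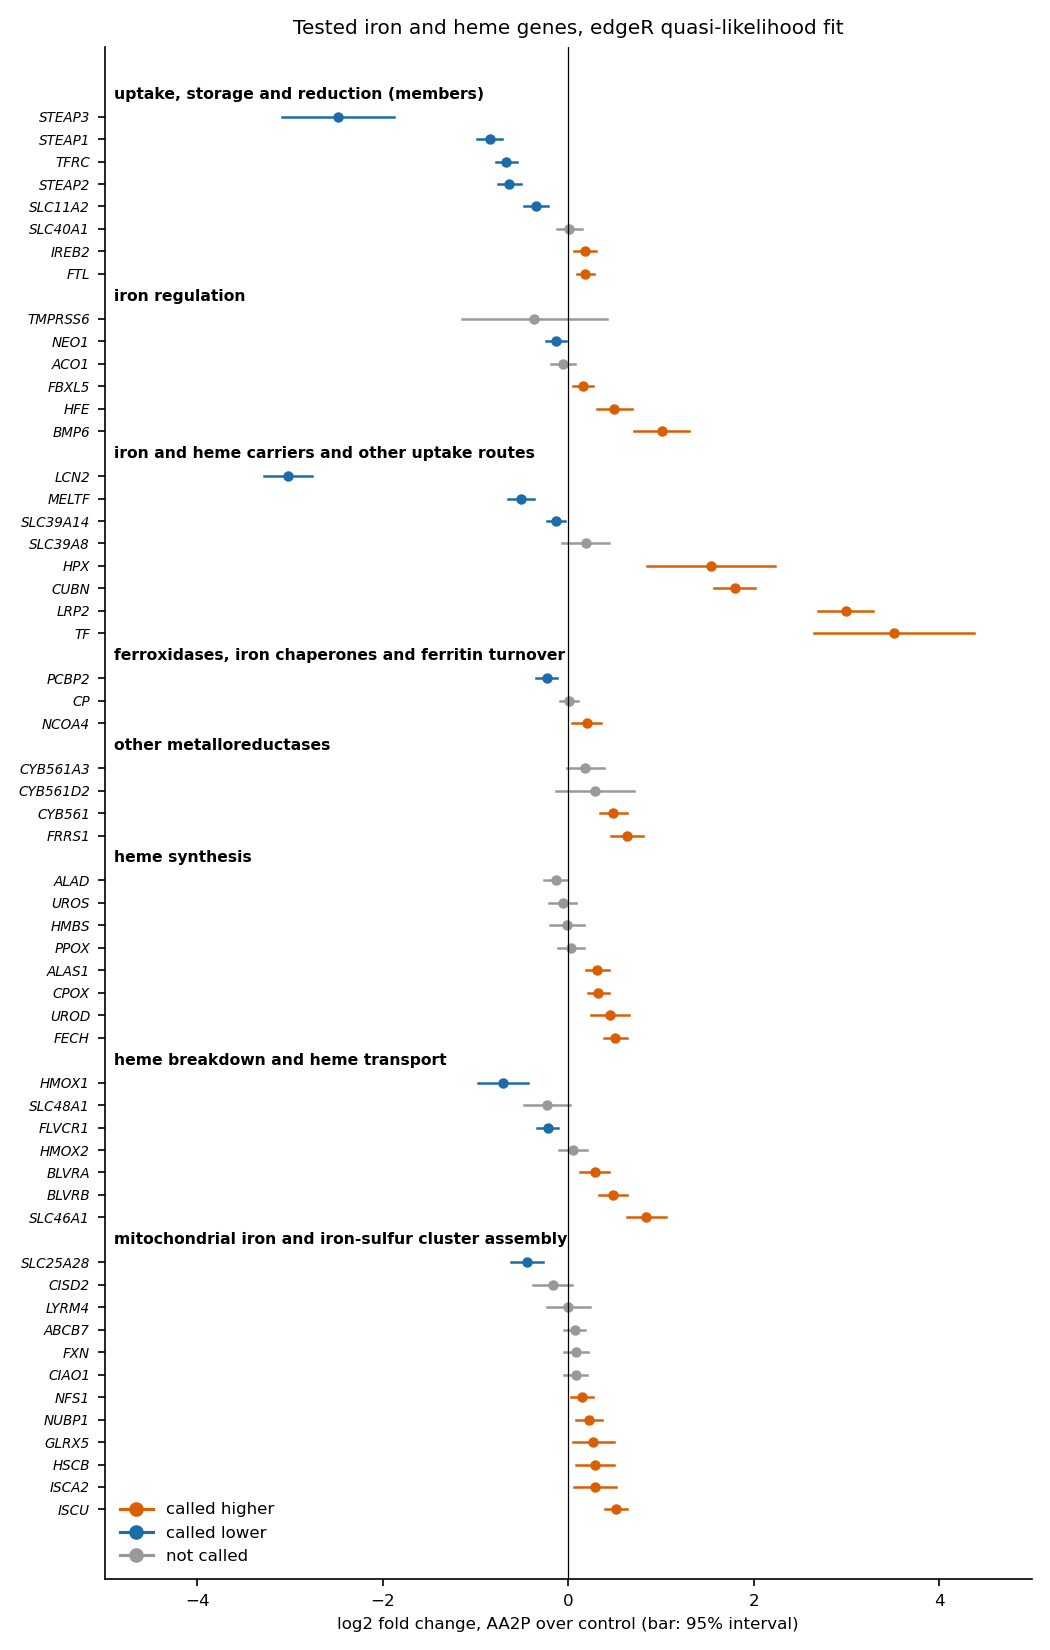
Log2 fold change, AA2P over control (horizontal axis), with its 95% interval for the 8 tested iron genes and the 48 tested genes of the 7 other iron and heme lists, each a row grouped by role (orange called higher, blue called lower, grey not called). The widest changes are those of TF, LRP2 and CUBN upward and of LCN2 and STEAP3 downward, while most genes of heme and cluster synthesis lie within 0.5 of 0. STEAP3, TF and HPX passed the filter on low counts through the group in which they were high, so their intervals are no support.

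Summed levels of cell type markers differed between the groups for several lists, while the germ cell sums overlapped. STAR and DND1, the only tested markers of the Leydig and germ cell lists, were not called. All 9 kidney tubule epithelium markers that had a row rose, against 26.0% of all tested genes. Their summed level was 377 to 441 CPM with control and 1379 to 1813 CPM with AA2P. LRP2 and CUBN belong to that list too. The Sertoli list had 9 of 13 genes with a row, and its sum, most of it CLU, went from 4173 to 4482 CPM down to 1202 to 1730 CPM. GATA4, GATA1, DMRT1 and FSHR of that list had no row and were not analysed here, and KITLG, INHA and DHH were below 1 CPM in every library. Of the 8 macrophage markers 4 had a row, CD68, CSF1R and CD163 were under 1 CPM everywhere, and the sum, mostly AIF1, was 0.766 to 1.55 and 5.09 to 5.81 CPM. The erythroid sum, nearly all EPOR, was 16.0 to 19.8 CPM and 6.96 to 9.16 CPM, and ALAS2, HBM and SLC4A1 were under 1 CPM everywhere. Sums were 5.58 to 6.12 and 6.36 to 7.48 CPM for 4 of 7 Leydig markers, 553 to 563 and 470 to 538 CPM for the 6 peritubular ones and 95.3 to 96.4 and 37.3 to 51.5 CPM for 4 of 7 stromal ones. Of the 4 tested peritubular markers, TAGLN, which makes up most of that sum, and DES fell, while MYLK and CNN1 rose. For 2 of 6 endothelial and 3 of 7 germ cell markers they were 2.03 to 2.87 and 6.08 to 8.03 CPM, and 1.38 to 1.89 and 1.44 to 2.34 CPM. The part of these shifts in the differences of the iron genes was not tested.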

How the data were processed

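Whole-number read counts per gene were deposited by the authors, 1 column per library, not normalized. The submitters' processing notes name bcl2fastq and HISAT2 2.0.5, with no counting tool, strand setting, build or annotation given in the sources used here. Symbols came from a table of gene names, which matched 13141 of 17670 identifiers. In the RefSeq annotation of Sscrofa11.1, 8 of the 10 genes, FTH1 among them, were placed as protein coding, and 0 of these overlapped another gene. SLC11A2 and STEAP1 were not placed in this way, so overlap was not checked for them. Library totals ran from 18747307 to 23521291 counts, and TMM factors from 0.941 to 0.945 in control and 1.05 to 1.07 in AA2P libraries. FN1, an abundant gene, took 2.41% to 2.54% and 0.722% to 0.916% of counts. AA2P library 3 correlated best with the controls (mean Pearson r across genes 0.970, against 0.959 and 0.961).

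All 6 libraries entered one edgeR 4.0.16 fit (R 4.3.3) with the group as its only term. Genes were kept by filterByExpr (minimum count 10), giving 12701, and called at a Benjamini-Hochberg adjusted p of 0.05. Standard errors of fold changes are the absolute log2 fold change over the root of F. Those of the count ratios come from the variance of the log2 ratio within each group. Ratios of counts were compared by exact permutation. The fit was tested on simulated counts. Alternatives used DESeq2 1.42.0, limma 3.58.1 (voom), other scaling and filters, the replicate number as a block, an adjusted p of 0.01, and each library left out. The members and lists were chosen with earlier results of these data known. All members were named, and of each list up to 4 called genes by smallest p. ACO1, CP, HAMP, HPX, TMPRSS6, TFR2, STEAP4 and the markers were named outside that rule, and the TFRC to FTL and STEAP2 to STEAP1 ratios were added, after seeing the data. The planned ratios with FTH1 were not formed.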

Additional observations from a re-analysis of the deposited data

How the results depend on the processing

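Of the 5 iron genes called lower, TFRC, SLC11A2, STEAP1 and STEAP2 stayed called lower in all 14 alternatives, and FTL stayed called higher. STEAP3 also stayed lower, but it entered the test through its control libraries, so its calls are not given as support. Over these alternatives the log2 fold change ran from -0.70 to -0.50 for TFRC, from -0.40 to -0.18 for SLC11A2, from -0.88 to -0.68 for STEAP1, from -0.68 to -0.47 for STEAP2, from -2.78 to -2.32 for STEAP3 and from 0.17 to 0.35 for FTL. The number called higher was 1 at an adjusted p of 0.01 and ran from 1 to 2 with a library left out, IREB2 being the gene lost without control library 2. SLC40A1 ran from -0.0526 without AA2P library 1 to 0.0625 without AA2P library 3, was at -0.0154 without control library 2, and was not called in any of these. Library totals gave 5727 genes called higher and 1822 lower, against 3302 and 3313, and 4 genes of the wider lists lower against 8. NEO1 was then at 0.0401. The cause was not tested. The 3 count ratios kept their sign with each library left out, at -0.74 to -0.65 for TFRC to SLC40A1, -0.91 to -0.79 for TFRC to FTL and 0.18 to 0.23 for STEAP2 to STEAP1. Same-numbered libraries did not deviate together (r of -0.04, -0.02 and -0.06 for numbers 1 to 3). With the replicate block 6204 genes were called, 2 iron genes higher and 5 lower, and 20 genes of the wider lists higher and 6 lower. Depth limits STEAP3, TF and CYBRD1, with at most 11 counts in an AA2P library, 8 in a control library and 5 in any library.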
